A study of Mus musculus with 2 samples.

Results

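Heme is made from glycine and succinyl-CoA in a chain of enzymes that begins and ends in the mitochondrion and runs through the cytosol in between. The 9 genes described here encode the importer of glycine into mitochondria and 8 enzymes of that chain. They were chosen by name from the pathway, but with earlier results of these data known. Slc25a38 is the glycine importer. Alas1 and Alas2 encode the 2 isozymes of 5-aminolevulinate synthase, the rate-limiting enzyme, of which Alas1 is made in most cell types and Alas2 in the red cell lineage. Alad joins aminolevulinate molecules to porphobilinogen, Uros closes the tetrapyrrole ring, Urod and Cpox decarboxylate its side chains, Ppox oxidises protoporphyrinogen, and Fech, ferrochelatase, inserts iron. In erythroid cells the pathway supplies hemoglobin, and in other cells it supplies cytochromes and other heme proteins. All 9 were present among the 17608 genes of the table. Other enzymes of the pathway were not analysed here.

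The cells were erythroid progenitors of C57BL/6 mouse embryos, taken from the fetal liver at E14.5 and described in the labels as low in CD71 and CD24. They were read with a 10x 3' version 3 kit, which tags every captured RNA molecule so that it is counted once (a UMI, unique molecular identifier). Because reads come from the 3' end, UMI levels can be set side by side between genes without correction for gene length, although capture may differ between genes. A first library, called the hashed library here, mixed 4 isolations marked with antibody-linked barcodes. These were PE-high, PE-low, FACS CFU-E and FACS BFU-E, where FACS is fluorescence-activated cell sorting and BFU-E and CFU-E are the earlier (burst-forming) and later (colony-forming) erythroid progenitors. The CITE-seq library, in which antibodies to CD117 and CD71 carried barcodes, held the names CS BFUE and CS CFUE and many cells without a pool name. The sources used here do not give the meaning of PE and CS or the way cells received their names. Nor is it given whether these cells went through the culture with dexamethasone or methanol that the labels describe, or how many embryos stood behind a pool. Each pool was 1 sample and had no replicate, so no p-value is given, and all intervals below are 95% intervals of counting error only.

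FACS BFU-E, CS BFUE and PE-low, with 233, 122 and 208 cells, are called the earlier pools below, and FACS CFU-E, CS CFUE and PE-high, with 167, 195 and 294 cells, the later pools. A further 2138 cells had no pool name. Median depth per cell lay between 23449 UMIs in CS BFUE and 38663.5 in PE-high, and no cell barcode was shared by the 2 libraries. The names PE-low and PE-high state no stage, and they were placed as earlier and later by erythroid genes: 21 late erythroid genes summed to 1441, 1640 and 1060 counts per 1000000 UMIs (CPM) in FACS BFU-E, PE-low and CS BFUE and to 5346, 4890 and 4164 CPM in FACS CFU-E, PE-high and CS CFUE. Cells with myeloid transcripts were part of the earlier pools. Cells with at least 10 of 10000 thinned UMIs in an 11-gene myeloid list (Mpo, Elane, Ctsg and others), called the myeloid class below, made up 29.6% of FACS BFU-E, 22.6% of PE-low, 23.8% of CS BFUE and 6.46% of PE-high, and 0% of FACS CFU-E and CS CFUE. Globin-rich cells, with at least 10 of 10000 thinned UMIs of the adult globin genes Hba-a1, Hba-a2, Hbb-bs and Hbb-bt, numbered 0, 2 and 1 in the earlier pools and 28, 78 and 34 in FACS CFU-E, PE-high and CS CFUE. Both classes are ranges of a score and not cell types, with 81 cells at 5 to 15 myeloid UMIs and 458 at 5 to 15 globin UMIs. Hepatocyte genes, which mark the other main cell type of the liver, summed to 2.73 to 4.07 CPM in the hashed pools, 33.0 in CS BFUE and 154 in CS CFUE, and their part in the results was not tested.

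The DNA just upstream of 3 members is shown because their levels moved in 3 different ways in the results that follow. Cpox rose well before Alas2, Alas2 rose last, and Alas1 was lower in the later cells. Each run is the 250 bases before an annotated transcription start, in the direction of transcription, from RefSeq's GRCm38.p6 annotation, the assembly named mm10 in the submitters' processing notes. Capitals mark matches on either strand to a GATA-type motif (the motif AGATAA, the motif TGATAA, or either of them ending in G, recognised by GATA factors) or to a CACCC or GC-rich motif (CCNCNCCC, recognised by factors of the KLF and SP family). The Alas2 run is chrX:150547167-150547416 on the plus strand, the Cpox run chr16:58669958-58670207 on the plus strand, and the Alas1 run, for the more upstream of 2 listed starts, chr9:106247955-106248204 on the minus strand.
Alas2: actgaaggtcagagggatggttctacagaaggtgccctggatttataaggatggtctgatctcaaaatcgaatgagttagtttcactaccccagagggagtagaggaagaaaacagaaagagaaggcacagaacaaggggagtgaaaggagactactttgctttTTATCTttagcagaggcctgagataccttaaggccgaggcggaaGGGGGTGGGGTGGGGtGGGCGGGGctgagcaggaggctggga
Cpox: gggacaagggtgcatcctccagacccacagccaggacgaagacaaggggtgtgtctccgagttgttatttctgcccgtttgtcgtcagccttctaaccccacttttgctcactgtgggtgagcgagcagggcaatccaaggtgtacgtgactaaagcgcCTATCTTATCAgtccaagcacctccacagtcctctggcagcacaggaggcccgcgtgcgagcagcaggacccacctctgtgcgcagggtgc
Alas1: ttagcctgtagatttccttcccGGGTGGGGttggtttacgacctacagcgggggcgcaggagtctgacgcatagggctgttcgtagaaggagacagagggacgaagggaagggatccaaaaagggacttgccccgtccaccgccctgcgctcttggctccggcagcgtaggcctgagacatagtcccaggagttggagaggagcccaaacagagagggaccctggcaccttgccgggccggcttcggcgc
The Alas2 run holds 1 GATA-type match, 81 to 86 bases upstream of the start, and 4 overlapping or adjoining CACCC-type matches between 19 and 42 bases upstream. The Cpox run holds a pair of GATA-type matches that overlap by 1 base, between 81 and 91 bases upstream, and no CACCC-type match. The Alas1 run holds 1 CACCC-type match and no GATA-type match. Among 32851 promoter windows of the same length, 26.5% hold a GATA-type match and 45.9% a CACCC-type match. Of the other members in the promoter table, Slc25a38 and Alad have CACCC-type matches only, Uros has GATA-type matches at the more downstream of its 2 starts and a CACCC-type match at the other, and Urod and Ppox have neither motif. Fech was not shown. A match is a description of the letters and not a bound site.

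The genes lie at chr9:106233455-106247954 (Alas1, minus strand), chrX:150547417-150570622 (Alas2, plus), chr9:120110377-120126093 (Slc25a38, plus), chr4:62505984-62520063 (Alad, minus), chr7:133686142-133710467 (Uros, minus), chr4:116989965-116994436 (Urod, minus), chr16:58670208-58680391 (Cpox, plus) and chr1:171276991-171281193 (Ppox, minus) in GRCm38.p6. The span of Alas2 overlaps those of Apex2 and Mir3620, and that of Uros overlaps Bccip. The sources used here do not state whether counting used the strand, so the counts of Alas2 and Uros carry that uncertainty. No other annotated gene overlaps the remaining members.

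The first comparison asked how the pathway differs between the earlier and the later pool of each pair. In all 3 pairs 8 of the 9 members were at least 1.5-fold higher in the later pool, and Alas1 was at least 1.5-fold lower. In CS CFUE this count takes Alas2 in through a ratio of 1.76 to a floor of 3 counts, set because CS BFUE had 0 UMIs. The exact interval of 13 against 0 UMIs began at 1.24, short of 1.5-fold. Without the myeloid class the ratio to the floor was 1.36, so that 7 members were higher, and Alas1 was past 1.5-fold lower only in the FACS pair. The same call was made for 9.15% of the 3476 genes compared as higher in FACS CFU-E and for 9.58% as lower, for 5.84% and 6.94% of 3443 genes in PE-high, and for 10.7% and 8.77% of 3077 genes in CS CFUE. The median ratio of the members was 2.73, 2.64 and 2.60 in the 3 pairs, beside 1.03, 1.02 and 1.05 over all genes compared. Genes compared had at least 50 CPM and a UMI in at least 10% of cells in a pool of the pair. 7, 7 and 6 members met that filter; Alas1 and Alas2 did not in any pair, nor did Uros in CS BFUE and CS CFUE. The pairs are separate pools of cells, but all of the hashed pools share 1 library.

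Slc25a38, the glycine importer, had 33.2 CPM in the FACS, 32.9 in the PE and 16.8 in the CS pair's earlier pool, and 109.8, 95.2 and 65.0 CPM in the later ones. The later pools lie above the earlier ones without overlap. The share of all genes that separate the pools without overlap was not computed, here or for the members below. The ratio of Slc25a38 was 3.30 (2.85 to 3.84) in the FACS pair, 2.90 in the PE pair and 3.86 in the CS pair. It was thus higher in the same pools as the enzymes from Alad to Fech, but not as Alas1, which was lower there.

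Of the cytosolic enzymes, Alad stood at 228, 239 and 156 CPM in the earlier pools of the FACS, PE and CS pairs and at 589, 525 and 398 CPM in the later ones, in that order. Its ratio was 2.58, 2.19 and 2.55 in the 3 pairs. Uros, which closes the ring, was scarce in the earlier pools, with 11.1, 14.8 and 7.75 CPM, and reached 59.5, 54.9 and 46.9 CPM in the later ones. These are ratios of 5.35 (4.205 to 6.89), 3.70 (3.01 to 4.601) and 6.05 (3.97 to 9.67), the highest among the members other than Alas2 in each pair. Urod stood at 133, 136 and 108 CPM in the earlier pools and at 283, 252 and 229 CPM in the later ones. Its ratios of 2.12, 1.85 and 2.11 were the lowest among the 8 members that were higher in FACS CFU-E, PE-high and CS CFUE, apart from the ratio of Alas2 to the floor in the CS pair. Uros was thus the cytosolic step with the largest ratio between pools and Urod the one with the smallest.

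Of the mitochondrial steps that follow, Cpox stood at 299, 272 and 163 CPM in the earlier pools and at 787, 718 and 545 CPM in the later ones, with ratios of 2.63, 2.64 and 3.33. Ppox stood at 26.8, 29.8 and 20.9 CPM and then at 73.2, 69.9 and 54.3 CPM, with ratios of 2.73, 2.35 and 2.60. Fech stood at 47.3, 52.5 and 40.4 CPM and then at 171, 155 and 132 CPM, with ratios of 3.61, 2.95 and 3.26. No earlier pool reached the level of any later pool for Cpox, Ppox or Fech, but how common this is among all genes was not computed. The 9 members together took 807, 797 and 537 CPM in the earlier pools and 2082, 1890 and 1484 in the later ones, and Cpox and Alad alone held 37.1% and 28.3% of these UMIs in FACS BFU-E and 37.8% and 28.3% in FACS CFU-E.

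**Figure D1:**
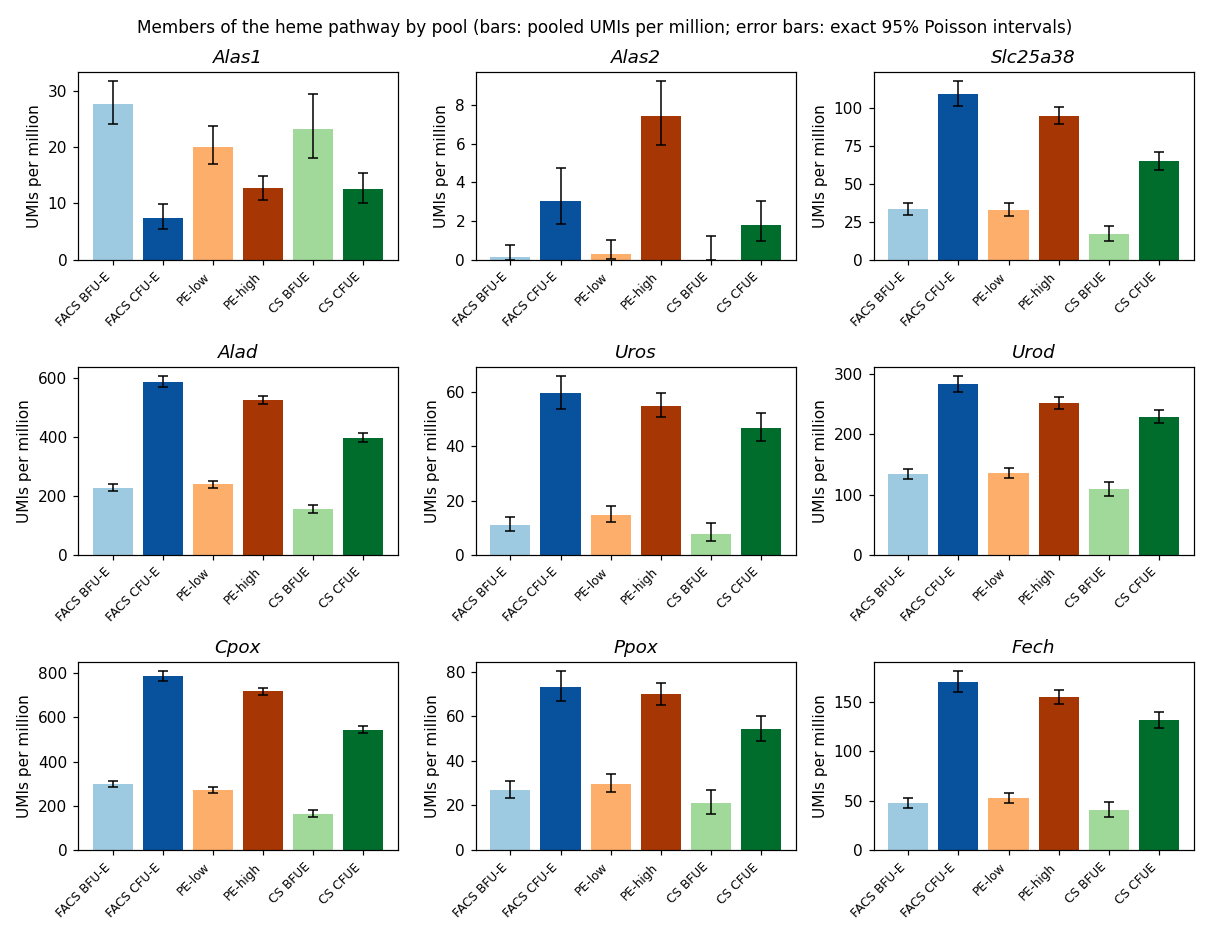
Level of each of the 9 members in the 6 pools, as CPM (bars, linear axis from 0) with exact Poisson intervals of counting error (error bars). In 8 panels the darker bars of FACS CFU-E, PE-high and CS CFUE stand above the lighter bars of FACS BFU-E, PE-low and CS BFUE, and in the Alas1 panel the order is the opposite, from 27.7 against 7.38 in the FACS pair to 20.04 against 12.6 in the PE pair.

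Part of each ratio moved with the myeloid class, in which the members as a whole were low. That class had 230 CPM of the 9 members together, against 1013 in the remaining cells of FACS BFU-E, and Alas1 at 48.9 CPM (43.9 to 54.2), above its level in any pool. With the class left out, the ratio of Cpox in the FACS pair was 1.98 in place of 2.63, that of Alad 2.03 in place of 2.58, that of Uros 4.52 in place of 5.35 and that of Urod 1.71 in place of 2.12. The 7 members from Slc25a38 to Fech still lay past 1.5-fold higher in all 3 pairs, the lowest value being 1.60 for Urod in PE-high. Without the globin-rich cells these 7 also stayed past 1.5-fold, the lowest being 1.57 for Urod in PE-high.

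Alas1 was the exception in direction. It stood at 27.7, 20.04 and 23.2 CPM in the earlier pools of the FACS, PE and CS pairs, and at 7.38, 12.6 and 12.6 CPM in the later ones. The later pools lie below the earlier ones without overlap, by 3.75-fold (2.71 to 5.28) in the FACS pair, 1.59-fold (1.25 to 2.02) in the PE pair and 1.85-fold (1.33 to 2.55) in the CS pair. Without the myeloid class these were 2.26-fold (1.57 to 3.30), 1.31-fold (0.959 to 1.77) and 1.07-fold (0.690 to 1.63), so that only the difference in the FACS pair stayed past 1.5-fold and had an interval that left out 1. In CS CFUE the level of Alas1 without that class differed from CS BFUE by less than its counting error. Without the globin-rich cells Alas1 was 1.36-fold lower in PE-high, and it stayed past 1.5-fold in the other pairs.

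Alas2, the erythroid isozyme, was close to absent from the earlier pools. Its UMIs numbered 1 (FACS BFU-E, 0.136 CPM), 2 (PE-low, 0.282 CPM) and 0 (CS BFUE), where 3 counts, taken as the floor for a count of 0, would be 1.01 CPM. The later pools had 19 UMIs in FACS CFU-E (3.05 CPM), 82 in PE-high (7.45 CPM) and 13 in CS CFUE (1.78 CPM). The ratio was 22.5 (3.57 to 934) in the FACS pair and 26.4 (7.08 to 222) in the PE pair. In CS CFUE the level of Alas2 was 1.76 times the floor of CS BFUE. The exact interval against 0 UMIs had a lower limit of 1.24, and of 0.958 without the myeloid class. Without the globin-rich cells the PE ratio was 6.93, and the level in CS CFUE (6 UMIs, 0.982 CPM) was no longer above the floor of CS BFUE. In each later pool Alas2 had the lowest CPM of the 9 members.

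The share of Alas2 among the UMIs of both synthases gives the switch between isozymes directly. FACS BFU-E had 0.488% (0.0123 to 2.69), PE-low 1.39% (0.169 to 4.93) and CS BFUE 0% (0 to 5.21). FACS CFU-E had 29.2% (18.6 to 41.8), PE-high 37.1% (30.7 to 43.8) and CS CFUE 12.4% (6.76 to 20.2). With all cells counted, the intervals of every later pool lie above those of every earlier pool. In the cells without a pool name Alas2 held 44.9%, in the globin-rich class 74.6% (71.4 to 77.6) and in the myeloid class 1.93%. In PE-high 80.5% of the Alas2 UMIs came from the globin-rich cells, and without those cells its share there was 11.8%. Globin-rich cells also held 42.1% of the Alas2 UMIs of FACS CFU-E and 53.8% of those of CS CFUE. Without them FACS CFU-E had 11 Alas2 and 38 Alas1 UMIs. CS CFUE had 6 and 73, too few Alas2 UMIs to hold it apart from the earlier pools.

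Alas1 and Alas2 together did not follow the other members. Their sum was 27.8 CPM in the earlier and 10.4 in the later pool of the FACS pair, 20.3 and 20.1 in the PE pair, and 23.2 and 14.3 in the CS pair. The sum was 2.67-fold lower in FACS CFU-E (2.01 to 3.58), 1.62-fold lower in CS CFUE (1.18 to 2.22), and in PE-high it differed from PE-low by less than its counting error. Without the myeloid class the sum was still 1.62-fold lower in FACS CFU-E (1.16 to 2.26), while in the PE pair it was 1.31-fold higher in PE-high (18.1 against 13.9 CPM, interval 0.999 to 1.73) and in the CS pair 14.3 against 13.5 CPM. The summed synthase level and the downstream enzymes thus differed between pools in opposite directions in the FACS pair, with the direction of the sum in the other pairs depending on the myeloid class.

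The second comparison set the isolation methods side by side at each stage. Between PE-low and FACS BFU-E, 0.796% of 3267 genes lay past 1.5-fold either way, and among the members none did except Alas2, whose 2 and 1 UMIs are under the floor and give no fold. The largest difference among the other 8 was that of Alas1, 1.38-fold lower in PE-low (1.11 to 1.72). Without the myeloid class it was 1.24-fold lower, with an interval that included 1 (0.900 to 1.70). Between PE-high and FACS CFU-E, 0.829% of 3257 genes lay past 1.5-fold either way, as did 0 of the 7 members that met the filter. The members past it were the 2 synthases, both below the 50 CPM of that filter. No share was computed for genes at such low levels. Alas2 was 2.44-fold higher in PE-high (1.47 to 4.27) and Alas1 1.71-fold higher (1.22 to 2.44), while the other 7 had ratios between 0.868 (Slc25a38) and 0.955 (Ppox), and between 0.697 and 0.838 without globin-rich cells. PE-high held more globin-rich cells, 26.5% against 16.8%, and without them the Alas2 ratio was 0.931 (0.406 to 2.22). It also held the only myeloid-class cells of the pair, and without them the Alas1 ratio was 1.402 (0.985 to 2.02).

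The order in which members appear was read along an axis of single cells. Each cell outside the myeloid class was scored by the mean natural log level of 21 late erythroid genes minus that of 12 early progenitor genes, none of them a member, and the cells of each library were put into 20 bins of equal size. The hashed library gave 769 cells and the CITE-seq library 2302. A member's midpoint is the percentile of cells at which its CPM passes, for good, the middle between the mean of the first 2 bins and the mean of the last 2 bins. The axis is an ordering by transcripts at 1 time point and not a measured course of time, and the percentiles of the 2 libraries rest on different mixes of cells. Median positions were 20.9% for FACS BFU-E, 22.8% for PE-low, 68.8% for PE-high and 72.7% for FACS CFU-E in the hashed library, and CS BFUE and CS CFUE at 5.04% and 41.4% of the CITE-seq library.

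All members but Alas1 ended higher than they began in both libraries. Between the lowest and the highest 10% of cells, Cpox went from 110 to 995 CPM in the hashed library and from 237 to 925 in the CITE-seq library. Slc25a38 went from 15.9 to 159 and from 19.9 to 109 CPM. Alad went from 129 to 791 and from 178 to 657 CPM. These are ratios of 9.04, 10.0 and 6.12 in the hashed library and 3.90, 5.49 and 3.70 in the CITE-seq library. Uros went from 13.6 to 103 and from 10.3 to 124 CPM, ratios of 7.61 and 12.05. The remaining enzymes had ratios of 6.84 (Fech), 4.93 (Ppox) and 3.68 (Urod) in the hashed library and 5.17, 5.05 and 3.09 in the CITE-seq library.

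Alad came up early along the axis and Alas2 last in both libraries. Cpox came first in the hashed library, but in the CITE-seq library its midpoint lay close to those of Urod and Ppox. In the hashed library the midpoints were 52.9% for Cpox, 56.0% for Alad, 61.7% for Urod, 68.2% for Slc25a38, 69.9% for Fech, 77.5% for Uros, 79.8% for Ppox and 92.8% for Alas2. In the CITE-seq library they were 38.8% for Slc25a38, 47.9% for Alad, 56.3% for Cpox, 58.1% for Urod, 58.4% for Ppox, 61.3% for Fech, 63.2% for Uros and 88.3% for Alas2. The orders of the 2 libraries had a Spearman rho of 0.762 over 8 members, which is a description of 8 points. Alad and Cpox changed places between the libraries. Cpox, Urod, Ppox, Fech and Uros lay between 56.3% and 63.2% in the CITE-seq library, too close to be ranked from 1 library. Slc25a38 differed most between libraries, by its place near the middle in the one and at the start in the other.

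The order did not run along the chemical sequence of the pathway. Cpox and Alad, an oxidase of late intermediates and the enzyme that follows the synthase, preceded Uros, Ppox or Fech, whereas Alas2, which catalyses the opening step, came after all other members. In 12 orders, made of 2 libraries and 6 settings of the axis, Alas2 was last in 12, Cpox preceded Uros, Ppox and Fech in 12, and Alad preceded Uros, Urod, Ppox and Fech in 12. These orders re-use the cells of the same 2 libraries, and midpoints carry no interval, so they are not independent readings. In the CITE-seq library the place of Cpox ahead of Ppox, Fech and Uros rests on small differences. Slc25a38 took places from 1 to 6, Fech from 3 to 7 and Ppox from 4 to 7, so their rank depended on the setting. The midpoint of Alas2 was close to that of the summed adult globins, at 93.0% and 88.4% of cells.

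**Figure D2:**
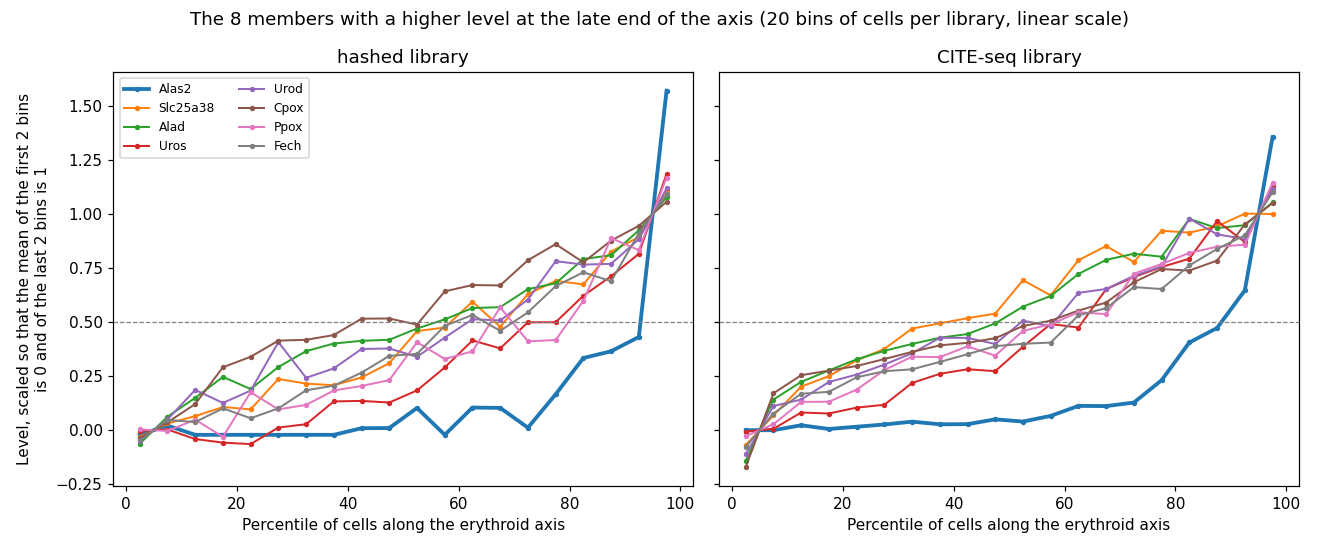
Level of the 8 members other than Alas1 in 20 bins of cells along the erythroid axis of each library, scaled so that the mean of the first 2 bins is 0 and that of the last 2 bins is 1; the dashed line marks the midpoint. The thick Alas2 line has its midpoint at 92.8% (hashed) and 88.3% (CITE-seq), to the right of all other lines.

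Several members were higher in the second bin of the axis than in the first. In the hashed library Cpox had 77.9 and then 141 CPM, Alad 87.4 and 170, Slc25a38 11.4 and 20.3, and Fech 26.6 and 47.1. Cpox averaged 210 CPM over the lowest 20% of cells and 467 over the next 20%. Uros averaged 11.2 and 16.2 CPM over the same cells, and Alas2 had 1 UMI and 0 UMIs there. Over the following steps of 20% Cpox averaged 589, 771 and 918 CPM and Uros 30.2, 53.9 and 88.4 CPM. Alas2 averaged 1.01, 2.57 and 14.8 CPM, so that most of its UMIs fell in the highest 20% of cells. In the CITE-seq library Alas2 averaged 0.381, 1.296, 2.18, 6.91 and 33.1 CPM over the same 5 steps, with Cpox at 334, 466, 542, 675 and 838 CPM.

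Along the same axis Alas1 was lower at the late end in both libraries. It went from 20.1 CPM in the lowest 10% of cells to 6.78 in the highest in the hashed library, a 2.97-fold lower level (1.70 to 5.40), and from 14.6 to 4.99 CPM in the CITE-seq library, 2.93-fold lower (1.91 to 4.61). By steps of 20% it averaged 17.1, 14.2, 11.4, 9.93 and 6.16 CPM in the hashed library and 14.2, 12.1, 10.7, 8.17 and 5.56 CPM in the CITE-seq library. Since myeloid-class cells were left out of the axis, these values do not include them. The midpoint of the Alas1 difference was at 72.6% and 58.3% of cells, but its position moved widely with the setting of the axis, down to 19.1% and 9.55% with the myeloid-class cells included and up to 77.9% (axis from late genes alone) and 81.5% (first principal component).

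The 2 synthases crossed late. Alas2 UMIs passed those of Alas1 at 82.5% of cells in the hashed library and at 73.1% in the CITE-seq library. In bin 17 of the hashed library, centred at that point, both had 11 UMIs. The interval of the Alas2 share included 50% in bins 16 to 19 of the hashed library and in bins 13 to 16 of the CITE-seq library, so the crossing is not sharply placed. In the last bin Alas2 held 85.5% (73.3 to 93.5) and 94.7% (90.5 to 97.4) of the summed UMIs. The sum of both stood at 21.8 and 14.6 CPM in the first bin, was lowest in bin 9 of the hashed library (9.92 CPM) and bin 8 of the CITE-seq library (10.7 CPM), and reached 40.2 and 68.3 CPM in the last bin. By steps of 20% of cells the sum averaged 17.3, 14.2, 12.4 and 12.5 CPM in the first 4 steps of the hashed library and 21.0 in the last, and 14.55, 13.3, 12.9, 15.1 and 38.7 CPM in the CITE-seq library. Cpox was higher in each of these steps than in the one before it. The last bins held more globin UMIs than any other, 9087 and 25558 CPM.

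**Figure D3:**
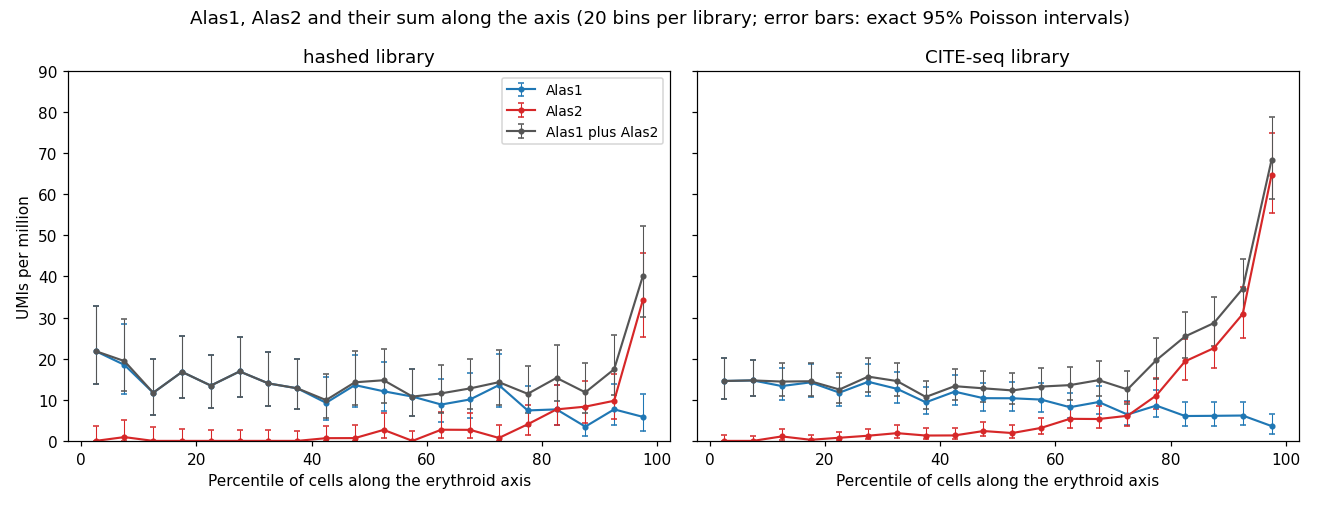
Alas1 (blue), Alas2 (red) and their sum (grey) in 20 bins of cells along the erythroid axis, as CPM on a linear axis with exact Poisson intervals (error bars). The red line crosses the blue one at 82.5% of cells in the hashed library and 73.1% in the CITE-seq library, with intervals that overlap there. The sum has its highest value in the last bin of each, 40.2 and 68.3 CPM.

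Within single cells the synthases were seldom seen together, at a depth at which neither was seen in most cells. In PE-high 11 of 294 cells had a UMI of both, 88 only of Alas1, 38 only of Alas2 and 157 of neither. Among its 49 cells with Alas2, 22.4% had Alas1, against 35.9% of the cells without Alas2, at a median depth of 36912 and 39132 UMIs. Among cells without a pool name, 13.5% of 348 cells with Alas2 had Alas1, against 27.7% of the others. With each cell thinned to 10000 UMIs, 4 cells of PE-high had both, 22 only Alas2 and 26 only Alas1, so the PE-high counts are too small to rank. A background from free RNA in the droplets was not measured. In the myeloid class 2 of 286 cells had a UMI of Alas2 at a median depth of 24247.5, against 16.7% of PE-high cells at 38663.5. Of the 7 Alas2 UMIs of that class, 6 lay in cells that were also globin-rich.

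Cells with Alas2 had more of the other members apart from Alas1, but they were not matched to the other cells for position on the axis. Alas2 UMIs lay mostly at the late end of the axis, where these members were also high. Among cells without a pool name and outside the myeloid class, the 346 with an Alas2 UMI had 2.09-fold more Uros (1.95 to 2.25) than the 1670 without, 1.71-fold more Ppox, 1.67-fold more Fech, 1.49-fold more Cpox, 1.46-fold more Urod and 1.42-fold more Alad and Slc25a38. Alas1 was at 5.61 against 10.6 CPM, a ratio of 0.527 (0.392 to 0.696), and the adult globins at 7.11-fold. In PE-high the 49 cells with Alas2 had 1.72-fold more Uros (1.42 to 2.07), 1.53-fold more Fech and 1.31-fold more Cpox than the 226 without, and Alas1 at a ratio of 0.729 (0.384 to 1.28). The cells with Alas2 were not the deeper ones, with a median of 27114.5 UMIs against 29559 in the cells without a pool name.

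The number of members seen in 1 cell separated the stages at equal depth. With each cell thinned to 10000 UMIs, 5 or more of the 9 members were seen in 20.2% (15.2 to 25.9) of FACS BFU-E cells, 18.3% (13.3 to 24.2) of PE-low and 11.5% (6.42 to 18.5) of CS BFUE. In the later pools the share was 80.2% (73.4 to 86.0) in FACS CFU-E, 70.7% (65.2 to 75.9) in PE-high and 66.7% (59.6 to 73.2) in CS CFUE. Without thinning the shares were 67.0%, 71.2% and 44.3% in the earlier and 98.2%, 93.2% and 100% in the later pools. In the myeloid class the thinned share was 1.41%, and FACS BFU-E without that class had 28.0%. No thinned cell of any pool had all 9 members, and 3, 13 and 3 cells of FACS CFU-E, PE-high and CS CFUE had 8. The median cell of FACS CFU-E had 20 thinned UMIs of the members together and that of FACS BFU-E 6.

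**Figure D4:**
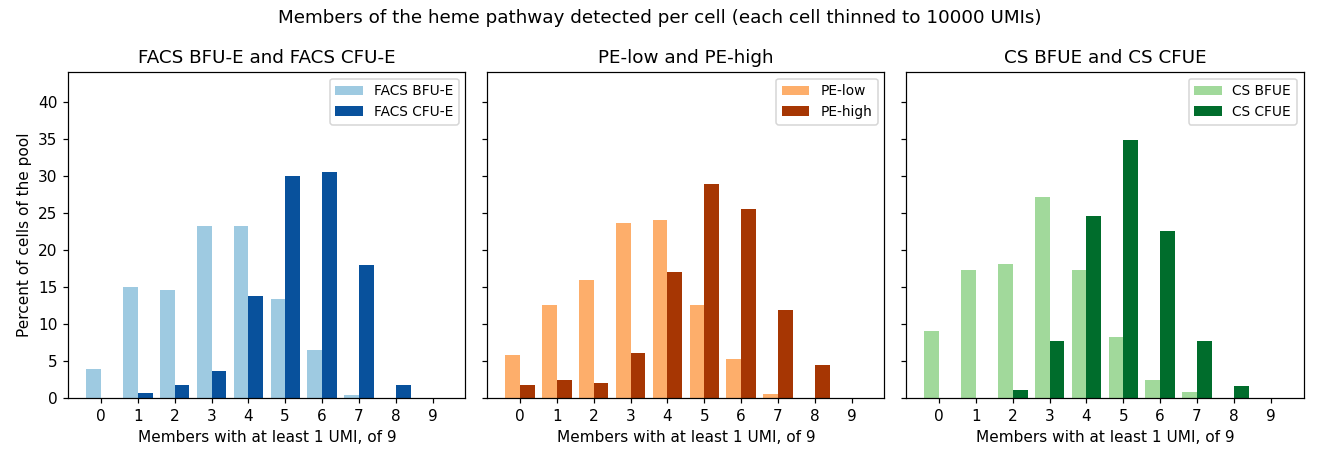
Share of the cells of each pool (bars, percent) by the number of members with at least 1 UMI, each cell thinned to 10000 UMIs, for the 3 pairs of pools. The lighter bars of the earlier pools lie mainly at 1 to 4 members and the darker bars of the later pools at 4 to 7, with 5 or more members in 20.2% of FACS BFU-E and 80.2% of FACS CFU-E cells.

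In the earlier pools Cpox was seen more often in cells with Alad than in cells without it, while most pairs of members were weakly related. In FACS BFU-E, Cpox was seen in 79.9% (73.0 to 85.6) of the 169 thinned cells with Alad and in 37.5% (25.7 to 50.5) of the 64 without. In PE-low the values were 80.3% and 33.9%, and in CS BFUE 78.7% and 25.5%. Without the myeloid class the difference in FACS BFU-E was smaller, 88.7% against 63.6%. The median Spearman rho across cells over the 6 pairs of Alad, Urod, Cpox and Fech was 0.338, 0.259 and 0.229 in the earlier pools of the FACS, PE and CS pairs and 0.135, 0.294 and 0.0804 in the later ones. Without the myeloid class it was 0.199 (FACS BFU-E), 0.148 (PE-low) and 0.189 (PE-high). These 4 were taken as abundant members, and over all pairs of members with a UMI the median rho in the earlier pools was lower, 0.0803 over 36 pairs in FACS BFU-E (from -0.189 to 0.577), 0.124 over 28 in PE-low and 0.138 over 28 in CS BFUE. With that class left out these were 0.0359, 0.0737 and 0.100. These are weak correlations of sparse counts from cells that share a library, and are given as a description. Alas1 had negative rho with these 4 enzymes in FACS BFU-E, between -0.189 and -0.136, and between -0.133 and 0.0187 without the myeloid class.

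Other genes around heme synthesis were read from 5 lists. Of 9 mitochondrial carriers and porphyrin transporters, 5 were compared in the FACS pair and 4 were higher in FACS CFU-E with 0 lower, 4 of 5 were higher in PE-high and 3 of 4 in CS CFUE. Fam210b, a mitochondrial protein of erythroid iron supply, went from 10.98 CPM in FACS BFU-E to 51.0 CPM in its later partner, 4.65-fold higher (3.63 to 6.00), with 4.94-fold in the PE pair. In the CS pair it was below the 50 CPM filter, with 295 against 21 UMIs, a ratio of 5.70 (3.66 to 9.34). Abcb10, a mitochondrial inner membrane transporter, had ratios of 3.41, 3.44 and 3.08 in the 3 pairs, Slc25a37 (mitoferrin, the iron importer of erythroid mitochondria) 2.80, 3.54 and 2.47, and Tmem14c, which moves protoporphyrinogen into the mitochondrial matrix, 1.98, 1.81 and 2.07. Slc25a39, the carrier compared in all 3 pairs that was not past 1.5-fold, had ratios of 0.779, 0.927 and 0.996. Without globin-rich cells 3 of 4 carriers compared were higher in FACS CFU-E, 1 of 3 in PE-high and 1 of 2 in CS CFUE. The median log2 ratio was then 1.06 in place of 1.49, 0.54 in place of 1.78 and 0.56 in place of 1.18. These medians are over fewer carriers, since some no longer met the filter, so they do not compare the same genes.

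The lists for the substrates and for iron-sulfur clusters were mostly level. Of 10 genes for succinyl-CoA and glycine supply, 0 were higher and 1 lower in the later pool of the FACS and of the PE pair, and 1 was higher and 1 lower in CS CFUE. The lower one was Shmt1, the cytosolic serine hydroxymethyltransferase, which makes glycine from serine, with ratios of 0.253 (0.207 to 0.308), 0.362 and 0.255. Of 9 iron-sulfur cluster genes compared, 1 was higher and 1 lower in the later pool of the FACS and of the PE pair, and 2 were higher and 1 lower in CS CFUE. Glrx5, a mitochondrial glutaredoxin, had ratios of 1.99, 1.77 and 2.08, and Hscb, a co-chaperone of cluster assembly, 0.580, 0.589 and 0.635.

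Of 11 genes for heme turnover, export and sensing, 7 were compared in the FACS pair, with 3 higher and 1 lower in FACS CFU-E, 3 higher and 0 lower of 8 in PE-high and 2 higher and 0 lower of 7 in CS CFUE. Hebp1, a heme-binding protein, had ratios of 4.71, 3.71 and 5.26, Blvrb, a biliverdin reductase, 3.12, 2.38 and 2.97, and Eif2ak1, the heme-regulated kinase of translation initiation, 1.76, 1.55 and 1.49. Of 3 genes for proteolysis of the synthase, 1 of 2 compared was higher in FACS CFU-E, and 0 of 3 in PE-high and 0 of 2 in CS CFUE. The median log2 ratios in the FACS pair were 1.49 for the carriers, 0.15 for substrate supply, 0.27 for iron-sulfur clusters, 0.52 for turnover and 0.41 for proteolysis, beside 0.04 over all genes compared.

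Genes with a pattern most like that of a synthase were ranked by Pearson's r of log2(CPM + 10) over the 40 bins of both libraries, centred within each library, among 2934 genes of at least 50 CPM on average. The bins of a library are ordered by the same axis, so all genes that follow the axis have high values. Nearest to Alas2 were Smc2 (0.935), a condensin subunit, Slc25a37 (0.933), Hbb-bs (0.932), a beta globin, Mki67 (0.920), a proliferation marker, and Hba-a2 (0.914), an alpha globin. The globin genes have near-identical copies, Hba-a1 and Hbb-bt, so how their reads were split is uncertain. Among the nearest to Alas1 were Clint1 (0.886), Qdpr (0.885), Phgdh (0.884), the opening enzyme of serine synthesis, and Arid1a (0.878), a chromatin remodelling subunit. The other members had r between 0.566 (Cpox) and 0.794 (Ppox) with Alas2 and between -0.884 (Ppox) and -0.776 (Cpox) with Alas1.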

How the data were processed

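Single-cell RNA was read from 2 libraries, a hashed library with 4 pools and a CITE-seq library with 2 named pools. The values that the authors deposited are on a natural log scale, ln(1 + count per 10000) in each cell, beside the pool name of the cell. The submitters' processing notes name the tools Scanpy and Cell Ranger (4.0.0) and the build mm10. Coordinates of cells on principal components, a score that the authors deposited as corrected, served only as an alternative axis (the first of them), and 1 column went unused. UMI counts were recovered by undoing the log and dividing by the size of 1 UMI in that cell. Of 16419767 values above 0, 100% were whole to within 0.02 (in proportion to the count above 50). There were 3357 cells of 6863 to 49971 UMIs and 17608 genes. Hashed cells share 1 barcode suffix, and cells with the other suffix were, by elimination, taken as the CITE-seq library.

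UMIs were summed per pool and scaled to 1000000 (CPM). Levels carry exact Poisson intervals, ratios exact conditional binomial intervals and shares exact Clopper-Pearson intervals, at 95% and for counting error only. A 1.5-fold ratio is a fixed size and not a test. A pool at 0 UMIs was set to 3 counts. Shares of cells with a UMI used cells thinned to 10000 UMIs by a seeded draw, which left out 7 cells. No doublet caller was run, and their removal before deposit is not stated in the sources used here. Members and lists were chosen with earlier results of these data known. Named genes are all 9 members, up to 4 of each list with the largest ratio in the FACS pair among those past 1.5-fold the same way in at least 2 of 3 pairs, and the 5 genes nearest to each synthase, of which 1 is not reported here. Ratios and midpoints were run on simulated Poisson counts. These hold counting error only, and no simulated midpoint was as late as that of Alas2. Alternatives changed the scaling, weighting of cells, fold, filters, cell classes, thinning and axis. Python 3.11.15, numpy 2.4.6, scipy 1.17.1, pandas 2.3.3 and matplotlib 3.10.9 were used.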

Additional observations from a re-analysis of the deposited data

How the results depend on the processing

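The number of members at least 1.5-fold higher in the later pool stayed within 1.5 times its value under all 18 alternatives run for it, which changed the scaling, the weighting of cells, the fold, the filter and the cell classes. That is a wide limit for a count of 8 of 9. In the CS pair the count was 7 without the myeloid class and 7 without globin-rich cells. Among members that met the filter it was 7, 7 and 6 in the FACS, PE and CS pairs, which is all of them. Of 108 alternative values of single member ratios, 80 moved by less than their counting interval, 27 moved beyond it with the same direction, and 1 crossed 1. That 1 was the ratio of Alas2 in CS CFUE to the floor of CS BFUE, which was 0.966 without globin-rich cells. Alas2 in CS CFUE then had 6 UMIs (0.982 CPM) in place of 13 (1.78 CPM). The Alas2 share of synthase UMIs in PE-high was 11.8% without globin-rich cells, and its other 17 alternative values over the 6 pools stayed within their intervals. Shares of cells with 5 or more members depend on depth. At 6000 UMIs they were 7.73%, 53.3%, 10.1%, 43.9%, 4.10% and 35.9% in the earlier and then the later pool of the FACS, PE and CS pairs. At 20000 UMIs they were 57.1%, 95%, 52.8%, 91.3%, 40.9% and 96.9%, and with 2 UMIs needed per member 0.429%, 25.7%, 0.481%, 23.1%, 0.0% and 13.3%. Without the myeloid class FACS BFU-E had 28.0%. With only 3 UMIs required of a gene, 9.68% of genes were past 1.5-fold higher in PE-high, in place of 5.84%. Of 90 alternative midpoints, 43 moved. Counting error limits Alas1 and Alas2 most, at 0 to 204 UMIs per named pool, and 1 sample per pool limits all differences.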
